A study of Macaca mulatta with 12 samples.

Results

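At least 1 probe set each of TM7SF3, ANKRD11, EXTL2, USP16, MYO6, CCDC88A, ITPRID2, SREK1, GPBP1 and WASHC4 had high signals in the dorsal raphe of monkeys given progesterone without estrogen. In the brightest set of each gene the log2 difference from placebo ran only from -0.50 to 0.40. These 10 genes, of 14559 named on the array, are read by 32 probe sets of 52766. They were chosen on these same arrays: at least 1 probe set of each gene (2 for WASHC4) passed the threshold upward in progesterone against placebo, with progesterone signals above those of every other group. That difference is therefore described here and not tested. The same fit called 2 further named genes higher, PPM1A and PPP2R2C, which are not among the 10.

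RNA was taken from 12 female rhesus monkeys and read on 1 Affymetrix rhesus array per animal. The tissue was the dorsal raphe nucleus of the brainstem, a main source of serotonin fibres to the forebrain. Each of 4 groups of 3 animals carried steroid-filled silicone capsules under the skin for 1 month: placebo, estrogen, progesterone, or estrogen and progesterone together. Placebo titles alone have the code OVX, which is taken to mean ovariectomized animals, and whether the steroid-treated animals were also ovariectomized is not stated in them. Ages and strains are not given in the sources used here. In the progesterone group, titles name progesterone with the code EP and descriptions have P; the group is treated here as progesterone without estrogen. The tissue is a block, so fewer cells of a type and less RNA per cell cannot be told apart.

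Progesterone acts through a nuclear receptor that binds DNA and regulates transcription, and through membrane receptors. Estrogen induces the nuclear progesterone receptor in many tissues, and for that reason experiments often give progesterone after or with estrogen. Progesterone given alone, as in 1 group here, is called unopposed. The 10 genes have no single pathway in common: ANKRD11, USP16, SREK1 and GPBP1 act in the nucleus, MYO6, WASHC4, CCDC88A and ITPRID2 act on actin, vesicles and calcium stores, and TM7SF3 and EXTL2 are a membrane protein and a sugar-adding enzyme.

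In each gene, 1 probe set is called the leading set here, the one with the lowest p in progesterone against placebo. Signals per array are the deposited intensities on a linear scale. Differences are on the log2 scale after quantile normalization, with the standard error of the limma fit (n = 3 animals per group). Of the 32 sets, 29 were bright enough to be tested. Over all 26383 probe sets tested, 31 were called higher in progesterone against placebo, 0.117%. That share is the background for the 11 called sets of these genes, and nothing is read from the comparison because the rule used it. Among named genes, SREK1, GPBP1 and a set of PPP2R2C stood nearest inside the threshold, with an adjusted p of 0.0407 (limma). A set without a gene name was nearer, with 0.0457. Just outside stood TRPM3 and NEK1 with 0.0507. Of the 11 called sets, 2 passed the filter on dim sets (a mean log2 intensity of 6.31) only through their progesterone arrays: the leading set of CCDC88A, with a mean of 6.14 over the other 9 arrays, and MmugDNA.8902.1.S1_at of WASHC4, with 5.91. The 11 calls became 2 to 12 when 1 array was left out and 0 in a fit of the placebo and progesterone arrays alone.

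Among the nuclear proteins, ANKRD11 is a chromatin regulator that binds histone deacetylases and coactivators of nuclear receptors. Its leading set (MmugDNA.16547.1.S1_at) had intensities of 103, 76.1 and 108 under placebo, 133, 98.8 and 77.1 under estrogen, 422, 362 and 341 under progesterone, and 143, 96.5 and 148 under the combination. The 3 progesterone animals lay above the other 9, with no overlap. The log2 difference from placebo was 1.96 ± 0.21 (SE), a fold of 3.90, and the combination lay 1.55 ± 0.21 below progesterone.

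USP16 removes ubiquitin from histone H2A. Its leading set (MmugDNA.12104.1.S1_s_at) read 141, 141 and 190.0 under placebo, 192, 143 and 152 under estrogen, 405, 534 and 401 under progesterone, and 126, 156 and 172 under the combination. The progesterone group stood apart from the rest. It differed from placebo by 1.52 ± 0.21 (SE).

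SREK1 is a splicing regulator with a serine- and arginine-rich region. Intensities of its leading set (MmugDNA.15287.1.S1_at) were 64.9, 77.4 and 119 under placebo, 94.4, 131 and 82.8 under estrogen, 402, 366 and 212 under progesterone, and 139.6, 111 and 107 under the combination. The third progesterone animal was the lowest of its group and still lay above all others. The log2 difference from placebo was 1.86 ± 0.30 (SE).

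GPBP1 is a transcription factor that binds GC-rich promoters. Its leading set (Mmu.12457.1.S1_s_at) gave 240.4, 156 and 227 under placebo, 258, 175 and 162 under estrogen, 822, 495 and 469.8 under progesterone, and 239.7, 243 and 236 under the combination. The first progesterone animal was well above the other 2 of its group. The difference from placebo was 1.52 ± 0.24 (SE), which passed in 1 of the 12 fits that left out 1 array.

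Among the proteins of vesicles and the cytoskeleton, MYO6 is the myosin that moves toward the minus end of actin filaments and carries endocytic vesicles. Its leading set (MmugDNA.8961.1.S1_at) read 77.6, 67.5 and 79.8 under placebo, 76.8, 85.8 and 74.2 under estrogen, 293, 358 and 192 under progesterone, and 82.7, 99.5 and 85.1 under the combination. The 9 animals outside the progesterone group spanned 67.5 to 99.5, a narrow range beside the progesterone values. The log2 difference from placebo was 1.80 ± 0.25 (SE).

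WASHC4 is a subunit of the WASH complex, which builds branched actin on endosomes. Its leading set (MmugDNA.28014.1.S1_at) had 115, 129 and 171 under placebo, 141, 146 and 116 under estrogen, 405, 621 and 360.1 under progesterone, and 149.8, 169 and 150.2 under the combination. The second progesterone animal was the highest. The difference from placebo was 1.72 ± 0.22 (SE).

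CCDC88A codes for girdin, an actin-binding protein of cell migration that also modulates G proteins. The leading set (MmugDNA.33282.1.S1_at) was dim without progesterone alone, with 40.1, 77.8 and 99.6 under placebo, 66.9, 70.6 and 66.4 under estrogen, and 95.05, 70.4 and 56.0 under the combination. Under progesterone it read 351, 297 and 219. The difference from placebo was 2.01 ± 0.31 (SE), with the highest estimate of the 10 leading sets, in a set that was bright enough to be tested only through its progesterone arrays. It ranged from 1.64 to 2.30 when 1 array was left out.

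ITPRID2 binds inositol trisphosphate receptors, the calcium channels of the endoplasmic reticulum, and ties them to actin. Its leading set (MmugDNA.26522.1.S1_at) gave 175, 131 and 217 under placebo, 134, 147 and 103 under estrogen, 876, 713 and 444 under progesterone, and 126, 205 and 207 under the combination. The progesterone animals spanned 444 to 876 and lay above the other 9, with an SD of 0.47 on the log2 scale. The difference from placebo was 1.94 ± 0.30 (SE).

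TM7SF3 is a membrane protein with 7 transmembrane segments, as its name states. Its leading set (MmuSTS.944.1.S1_at) read 75.1, 89.5 and 102 under placebo, 105, 86.0 and 91.1 under estrogen, 406, 300.3 and 305 under progesterone, and 85.7, 106 and 77.8 under the combination. The other 9 animals spanned 75.1 to 106. The difference from placebo was 1.90 ± 0.19 (SE), a fold of 3.73, and the combination lay 1.92 ± 0.19 below progesterone.

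EXTL2 is a glycosyltransferase that acts on the linker of heparan sulfate and related chains. Its leading set (Mmu.4602.1.S1_at) had 237, 238 and 259.9 under placebo, 251, 252 and 199 under estrogen, 591, 551 and 439 under progesterone, and 218, 209 and 258 under the combination. Its difference, 1.11 ± 0.16 (SE) and a fold of 2.16, was the lowest of the 10 leading sets. Its placebo animals were close together (SD 0.07 on the log2 scale, n = 3).

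**Figure D1:**
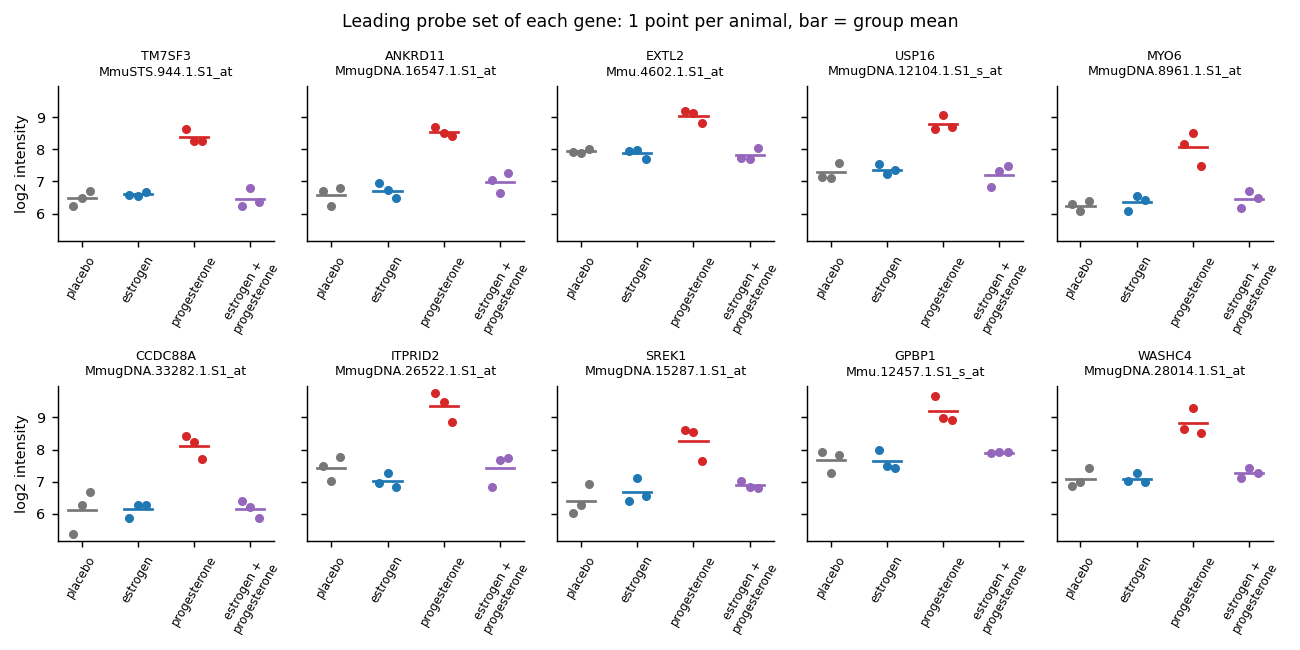
Log2 intensity after quantile normalization (vertical axis) of the leading probe set of each of the 10 genes in the 4 groups (horizontal axis). Each point is 1 animal and each bar a group mean; in all 10 panels the 3 progesterone points lie above the other 9.

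The third progesterone animal was the lowest of its group in 8 of the 10 leading sets and the highest in 0, and the first was the highest in 7. Averaged over the leading sets after centring each on its own mean, the profile stood at 1.44, 1.40 and 0.94 in the progesterone animals. It stood between -0.64 and -0.19 in the other 9. The third placebo animal, at -0.19, was the nearest to the progesterone group.

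Among all 52766 probe sets, 1.94% had the 3 progesterone arrays above all 9 others, and 2.48% among those tested. Of the 32 probe sets of these genes, 16 had that order: the 10 leading sets, on which the genes were chosen, and 6 others. Of these 6, the WASHC4 set MmugDNA.8902.1.S1_at was itself called, so the choice used its values too. The 6 belonged to ANKRD11 (2 sets), WASHC4 (2), USP16 (1) and GPBP1 (1). Those of USP16 and GPBP1 carry the same design number as the leading set, so they share a target sequence and are not a separate look at the gene. The 2 further sets of WASHC4 likewise share a number with each other, but not with its leading set.

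None of the 10 leading sets was the brightest set of its gene, and 5 were the dimmest. Brightness depends on the probe sequences as well as on RNA, so it gives no order of RNA levels. In the brightest sets the difference between progesterone and placebo ran from -0.50 to 0.40, with a median of 0.07, 6 above 0 and 4 below. Over all probe sets tested the median was -0.02. Among 10761 tested sets of other genes with 2 or more sets, 47.1% were the brightest of their gene, and among the 305 of these with all progesterone arrays highest, 41.0% were.

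The sets of ANKRD11 spanned the widest range. The set MmugDNA.43007.1.S1_at read 21.3, 80.5 and 77.3 under placebo and 387, 316 and 337 under progesterone, a log2 difference of 2.72. The set MmugDNA.11228.1.S1_at read 17.5, 49.9 and 63.4 under placebo and 159.5, 186 and 91.8 under progesterone, a difference of 1.75. Both were too dim over all arrays to be tested, so these differences carry no standard error and no call. In both, the progesterone arrays lay above the other 9. The brightest set (MmuSTS.48.1.S1_at) went the other way, with 559, 634 and 540.0 under placebo and 486, 368 and 409.9 under progesterone. Its difference was -0.44 ± 0.15 (SE), and with an adjusted p of 0.374 in the limma fit it was not called. Its 3 progesterone arrays lay below all 9 others after quantile normalization, but not on the deposited scale, a check added after the data were seen, or after median alignment.

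In CCDC88A, each of the other 3 sets had a lower mean under progesterone than under placebo. The brightest of them (Mmu.488.1.S1_at) read 1043, 991 and 838 under placebo and 841, 734 and 469 under progesterone, a difference of -0.50 ± 0.21 (SE). The other 2 differed by -0.33 and -0.20. These values overlapped those of placebo in all 3 sets, and none was called.

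WASHC4 had 3 sets high under progesterone and 1 that did not follow. MmugDNA.8902.1.S1_at had 55.3, 69.1 and 89.9 under placebo and 306, 284 and 244 under progesterone, a difference of 1.94 ± 0.26 (SE). It was called, but only its progesterone arrays brought it over the filter on dim sets, so the call adds nothing to the values. Its companion of the same number (MmugDNA.8902.1.S1_s_at) differed by 1.44 ± 0.35. The brightest set (MmugDNA.28015.1.S1_at) read 396, 464 and 464 under placebo and 504, 480.1 and 407 under progesterone, and its difference of 0.09 changed sign, to -0.04, when arrays were aligned on their medians instead.

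In USP16 the companion of the leading set, MmugDNA.12104.1.S1_at, read 314, 414 and 229.6 under progesterone against 72.8, 102 and 138 under placebo, a difference of 1.59 ± 0.30 (SE). The other 2 sets, each with a number of its own, differed by 0.31 and 0.05, and the second of these was at -0.07 after median alignment. In GPBP1 the companion Mmu.12457.1.S1_at differed by 0.88 ± 0.32, with 861, 541 and 370.5 under progesterone beside 367, 213 and 366 under placebo. After median alignment its 3 progesterone arrays no longer all lay above the others. The other 3 sets of GPBP1 differed by 0.21 to 0.25.

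The remaining genes had 1 or 2 other sets each. That of ITPRID2 read 1256, 1074 and 1240.1 under placebo and 1576, 1337 and 1542 under progesterone, a difference of 0.40 ± 0.17 (SE). Its progesterone arrays lay above all placebo arrays but not above the third estrogen array, at 1453. The other set of TM7SF3 differed by 0.40 ± 0.29, that of MYO6 by 0.10 ± 0.15 and that of EXTL2 by -0.03 ± 0.16. SREK1 had 2, at -0.09 ± 0.13 and 0.01 ± 0.30. For MYO6 and for the dimmer SREK1 set the sign was negative after median alignment.

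**Figure D2:**
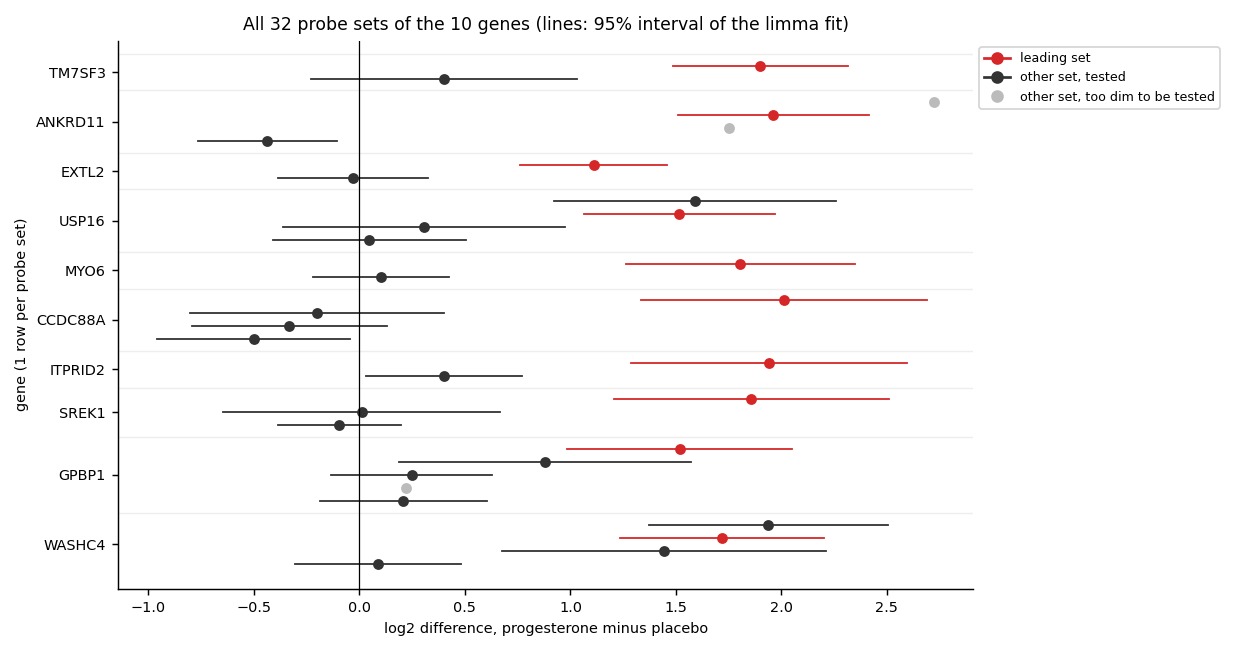
Log2 difference between progesterone and placebo (horizontal axis) for the 32 probe sets, 1 row each, grouped by gene (vertical axis). Points are limma estimates, lines their 95% confidence intervals, and grey points are the 3 sets too dim to be tested; the 10 leading sets lie between 1.11 and 2.01, while the other sets reach from -0.50 to 2.72.

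**Figure D3:**
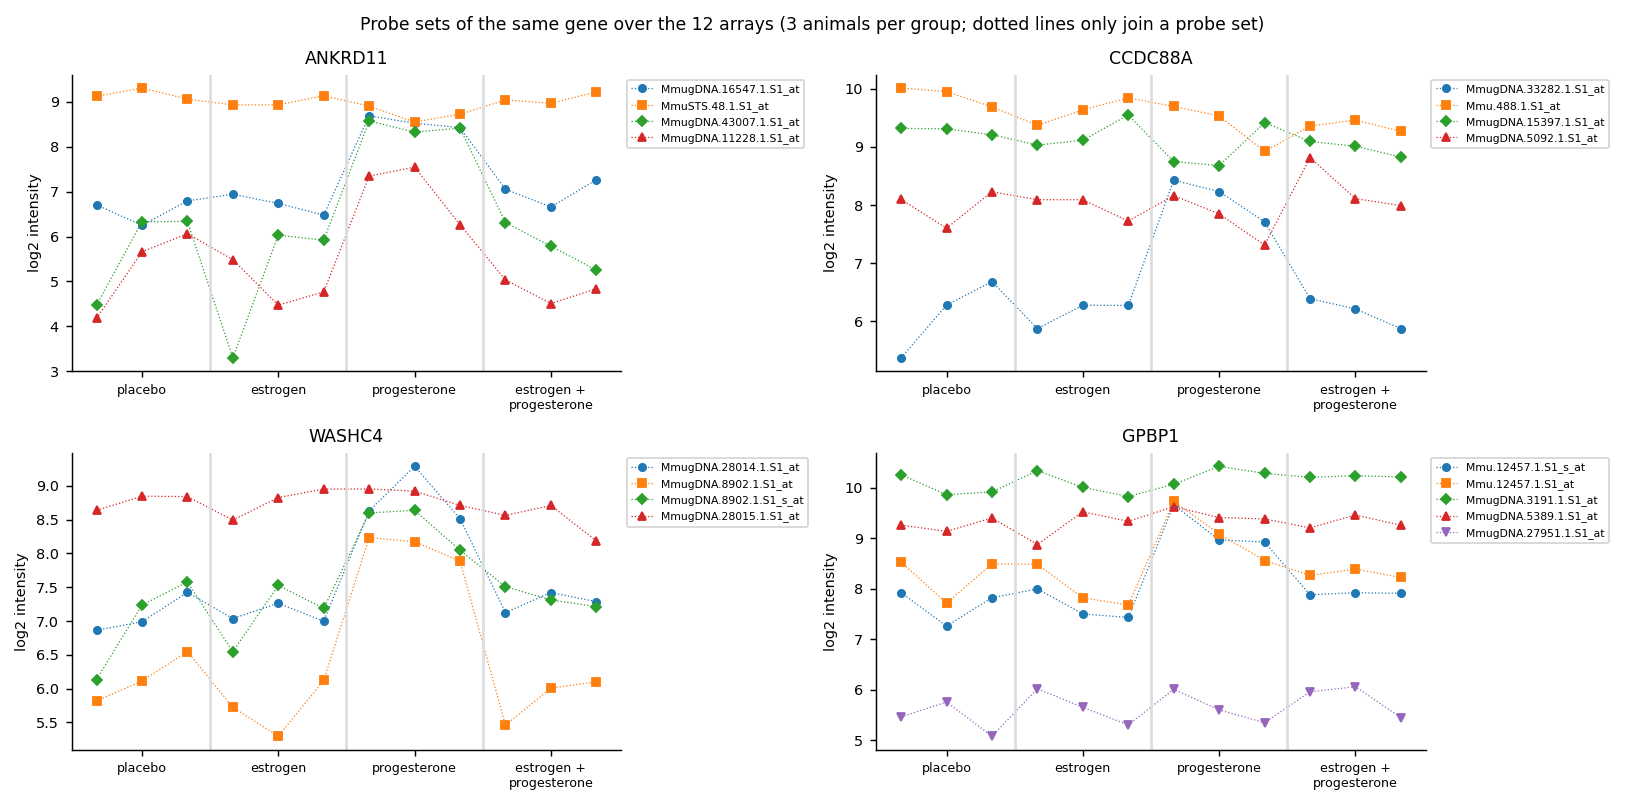
Log2 intensity (vertical axis) of every probe set of ANKRD11, CCDC88A, WASHC4 and GPBP1 in the 12 arrays, ordered by group (horizontal axis), with a dotted line joining the points of a set. In ANKRD11, 3 sets stand high in the progesterone arrays while the brightest stays between 8.55 and 9.30 in all 12.

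Over all 32 sets the median difference between progesterone and placebo was 0.64, with 26 above 0 and 6 below. These include the leading sets, on which the genes were chosen. The median of the 22 sets other than the leading ones was 0.21, with 16 above 0. The 22 still hold the called WASHC4 set and the companions of the USP16 and GPBP1 leading sets. For the 19 of them that were tested the median was 0.10, with 13 above 0. Over all probe sets tested the median was -0.02, with 46.7% above 0. The 3 sets that were not tested differed by 0.22 to 2.72.

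Probe set names start with MmugDNA, Mmu or MmuSTS in nearly all sets. Of the leading sets 7 had the first of these prefixes, 2 had Mmu and 1 had MmuSTS, while 81.35%, 5.08% and 12.05% of all sets tested had them. The order with progesterone above all others was seen in 2.52%, 2.84% and 2.08% of the tested sets of each kind.

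With estrogen alone, the leading sets stayed near placebo. The genes were chosen with progesterone above every other group, so the choice disfavoured high values in the other groups. Their differences ran from -0.40 (ITPRID2) to 0.28 (SREK1), with a median of 0.06, and every 95% confidence interval included 0. The highest upper bound, that of SREK1, was 0.93. In this comparison limma called 0 of 26383 probe sets (0%), and 699 (2.65%) had an unadjusted p under 0.05. Of the 32 sets, 0 were among the 699, and beside that share nothing is read from the 0.

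Under the combination the leading sets differed from placebo by -0.11 (EXTL2) to 0.47 (SREK1), with a median of 0.12, and again each interval included 0. The upper bound for SREK1 was 1.12, so a smaller difference in that gene is within the error. For each of the 10 genes the upper bounds under estrogen and under the combination lay below the lower bound under progesterone, an order that the choice of these genes favours. Limma called 0 probe sets (0%) in the combination against placebo, and 1017 (3.85%) had an unadjusted p under 0.05, among them 1 of the 32 sets, the CCDC88A set Mmu.488.1.S1_at (-0.52 ± 0.21, SE).

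The combination and progesterone alone differ by estrogen. Here the 10 leading sets were lower in the combination by 1.22 (EXTL2) to 1.96 (CCDC88A) on the log2 scale. In this comparison limma called 22 probe sets (0.0834%), 18 of them lower in the combination (0.0682%), and 8 of the 32 sets were among those 18, from 7 of the 10 genes. All 8 were also called in progesterone against placebo. Both comparisons use the progesterone arrays, so these values are not a second look.

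Progesterone against placebo and the combination against estrogen share no array, and both ask what progesterone adds, without and with estrogen. The median over the leading sets was 1.83 without estrogen and 0.14 with it. With estrogen the lowest value was -0.16 (USP16) and the highest 0.40 (ITPRID2, 95% confidence interval up to 1.05). The ANKRD11 set MmugDNA.43007.1.S1_at stood at 2.72 without estrogen and 0.70 with it. It was too dim to be tested, so neither value has a standard error. Its SD was 1.08 under placebo and 1.55 under estrogen, where it read 11.6, 59.5 and 50.7, so the 0.70 rests largely on 1 low array. Limma called 0 probe sets (0%) in the combination against estrogen, and 786 (2.98%) had an unadjusted p under 0.05. Of these, 0 were sets of the 10 genes, and beside that share nothing is read from the 0. Whether the progesterone difference itself depended on estrogen was not tested, since the genes were chosen on that pattern.

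**Figure D4:**
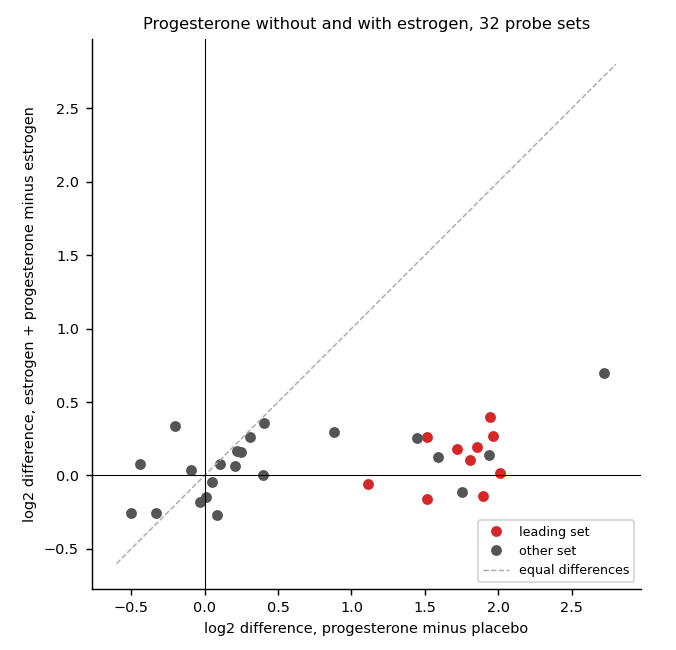
Log2 difference that goes with progesterone without estrogen (horizontal axis, progesterone minus placebo) and with estrogen (vertical axis, combination minus estrogen) for the 32 probe sets. The dashed line marks equal differences; the 10 leading sets lie between 1.11 and 2.01 on the horizontal axis and between -0.16 and 0.40 on the vertical axis.

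The genes most like the mean profile of the leading sets were sought among 14991 tested probe sets of other named genes. Likeness was the root mean square distance over the 12 arrays between centred log2 profiles. The nearest were MTUS1 (0.27), a microtubule-associated protein, USP1 (0.28), a deubiquitinase of DNA repair, SCAF11 (0.30), a splicing factor with a serine- and arginine-rich region, the zinc finger gene ZNF195 (0.31) and RSF1 (0.32), a chromatin remodelling subunit. The leading sets themselves lay at 0.16 (WASHC4) to 0.31 (CCDC88A). MTUS1 had log2 values of 8.12, 7.72 and 8.31 under placebo and 9.60, 9.74 and 8.98 under progesterone. In the nearest set of each of the 5 genes the progesterone arrays lay above the other 9, which the search favours. Only that set is described for each gene. The array has 3 sets of MTUS1, 2 each of USP1 and SCAF11, 6 of RSF1 and 1 of ZNF195, so no pattern of the whole gene is given.

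Partners and relatives of the 10 genes were taken from lists of known roles, chosen with earlier results of these data known. In progesterone against placebo 0 probe sets of any of them were called. The list of splicing proteins around SREK1 had 12 of 18 genes measured. Of its 33 tested sets 23 were above 0, with a median of 0.21. Over all sets tested, 46.7% were above 0. In 6 of the 33 (18.2%) the progesterone arrays lay above all others, beside 2.48% of all sets tested. The other 10 sets of the list were below 0. The 33 sets come from 12 genes, and the array has 6 sets of PNISR and 3 of SON, so they are not separate members. Nearest to passing were SON (1.83 ± 0.32, SE, limma adjusted p = 0.0565), a scaffold of nuclear speckles, and PNISR (1.65 ± 0.28, 0.0542), another protein of those speckles.

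After median alignment, which moved the median of all sets from -0.02 to -0.12, the median of this list was 0.11.

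The medians of the WASH, myosin and ANKRD11 lists lay near 0 and turned negative after median alignment. For the partners of WASHC4 in the WASH and retromer complexes, 5 of 10 sets were above 0 and the median was 0.01; SNX27, a sorting nexin, differed by 1.11 ± 0.50 (SE) and CAPZA2, an actin capping subunit, by -1.27 ± 0.62. For adaptors of MYO6 and other unconventional myosins, 11 of 17 sets were above 0 (median 0.07), with TOM1L2 at -0.68 and DAB2 at 0.39. For girdin's family and partners 2 of 9 were above 0 (median -0.13), with AKT1, a kinase, at -0.52 and GNAI1, a G protein subunit, at 0.26. For ANKRD11's relatives and partners it was 8 of 14 (median 0.03), with the coactivators NCOA3 at 0.78 and NCOA2 at -0.61.

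Histone H2A deubiquitinases were above 0 in 2 of 6 sets (median -0.29), with USP21 at -1.23 ± 0.36 (SE) and BAP1 at -0.31. Enzymes of heparan sulfate synthesis were above 0 in 5 of 16 (median -0.23), with EXT2 at -0.86 and XYLT1 at 0.48. The inositol trisphosphate receptors and ITPRID1 had 3 of 5 above 0 (median 0.15), with ITPR1 at -0.37 and ITPR3 at -0.49. GPBP1L1, the paralog of GPBP1, was at -0.24. None of these single genes was called.

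PGR, the nuclear progesterone receptor, had a mean log2 intensity of 2.82, below the highest mean of 5.60 among 27 control sets for bacterial transcripts, so its level is not known here. Progesterone receptor genes, membrane ones included, had 4 of 9 tested sets above 0 (median -0.06), with PGRMC2 at 0.49 and PGRMC1 at -0.38 in its set with the lowest p and -0.06 in its brightest. Genes that respond to progestins and corticosteroids had 6 of 15 above 0 (median -0.23), with DUSP1 at -0.45 and CEBPD at 0.68. Of these, 0 were called.

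The progesterone arrays also stood apart in other measures, whose part in these differences was not tested. For the control transcript EF1A, the 3′ probe set minus the 5′ one, in log2, ranged from -0.37 to -0.31 with progesterone alone, against -0.08 to 0.74 in the other 9 arrays. For actin the values were 0.66 to 1.23 beside 0.11 to 0.90, and for GAPDH -0.09 to 0.39 beside 0.11 to 0.89, with overlap. On the first principal component, 23.5% of the variance, the first arrays of placebo, estrogen and the combination stood apart at -51.6 to -44.0, and the progesterone arrays lay at -1.64 to 29.0 among the rest. Without those 3 first arrays, 3 of the 32 sets were called in place of 11. Over all sets tested, both directions counted, 27 were called there in place of 35. On the second principal component, 17.2% of the variance, the progesterone arrays lay at -14.1 to -54.5 and the other 9 at 0.50 to 20.4. Over all sets tested, 2.48% had every progesterone array above the other 9 and 2.07% every one below.

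Raphe markers were present: TPH2, the enzyme of serotonin synthesis in the brain, FEV, the transcription factor of serotonin neurons, and SLC18A2, the vesicular monoamine transporter, had mean log2 intensities of 7.31, 9.47 and 10.12. TPH2 stood at 6.47, 7.44 and 7.80 under placebo, 7.22, 7.14 and 7.39 under estrogen, and 8.85, 8.51 and 7.53 under the combination. In the progesterone animals it stood at 7.74, 6.99 and 4.66, and the first 2 lay within the placebo range. The third, which was also the lowest of its group in 8 leading sets, lay below the highest mean of the bacterial control sets, 5.60. The summed intensity of the 5 serotonin neuron markers measured, of 7 listed, was 1970.2 to 2507 under progesterone. It was 2570 to 3660.2 under placebo and no lower than 2570 in any other animal. None of these markers was called. For the 4 of 6 ependyma and choroid plexus markers measured it was 396 to 474 under progesterone and 488 to 598 under placebo, while estrogen (444 to 569) and the combination (454 to 668) overlapped progesterone. The sums of 4 of 8 oligodendrocyte, 4 of 6 astrocyte, 6 of 6 microglia and 7 of 8 cerebellar markers overlapped between progesterone and placebo. The microglia sum was 3287 to 4409 under progesterone, wholly above the 2983 to 3251 of the combination. No marker measured was at 0 on any array, and 1, the Purkinje cell marker PCP2, was at or below the floor of 4.99 on at least 1 array. The part of these shifts in the values of the 10 genes was not tested.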

How the data were processed

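The authors deposited linear intensity values, with 1 value for each probe set on each array. Per the values, the authors had scaled each array: the mean without the lowest and highest 2% was 200.0. Software was not given in the sources used here. Of 52865 probe sets, 99 controls were removed. Values were floored at the 5th percentile (4.99), log2 transformed and quantile normalized, and the 26383 sets with a mean of at least the median (log2 6.31) were tested. Limma 3.58.1 in R 4.3.3 was fitted with 1 mean per group over 12 arrays (8 residual and 3.54 prior degrees of freedom), two-sided, with Benjamini-Hochberg adjustment over all sets tested and a threshold of 0.05. Gene names came from the platform annotation. Figures used matplotlib 3.10.9.

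Arrays give no read depth: the number of animals limits precision, with a median 95% half-width of 0.49 for a log2 difference. An exact permutation test of 3 against 3 cannot go below p = 0.1. In simulated data for progesterone against placebo (26383 sets), 66.0%, 74.0%, 94.0% and 98.0% of sets changed by 1, 1.5, 2 and 3 were recovered, and 15 of 181 calls were false. The simulation had independent noise in each array and 50 changed sets of each size, so these shares need not hold for the real arrays.

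Replicate numbers pair no animals by the labels. The correlation of deviations from group means had a median of 0.027 in same-numbered and 0.012 in other pairs, and was -0.24 to -0.11 between placebo and progesterone. It was above 0.1 in all 3 same-numbered pairs of the combination with placebo (0.10 to 0.27) and with estrogen (0.14 to 0.51). The genes and lists were chosen with earlier results of these data known. All sets of the 10 genes were named; other genes by likeness (the nearest 5) and, per list, the lowest p (up to 2). Sequences and genome positions were not used.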

Additional observations from a re-analysis of the deposited data

How the results depend on the processing

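The order with progesterone above all others held for 15 to 17 of the 32 sets, and the member median stayed within 1 SD (0.28) of 0.64, in the settings that could change them. The median of all tested sets, -0.02, was -0.12 after median alignment, and 30 of the 32 sets had a lower difference there. Calls were less stable, and causes were not tested. The 35 calls of progesterone against placebo became 54 with log2 of intensity plus 16, 20 with the replicate number as a block, 0 in a fit of those 6 arrays alone, 0 with only the brightest set of each gene (which leaves out every leading set) and 5 to 55 without 1 array. They were 14, 5 and 55 without placebo array 1, 2 and 3, and 7 and 18 without progesterone array 2 and 3. The 11 member calls became 6 after median alignment, 3 with no filter, 2 with a filter at the 75th percentile, 7 with the replicate block, 3 without the first arrays of the other 3 groups, which stood apart on the first principal component, 0 in the 6-array fit, 0 with the brightest sets and 2 to 12 without 1 array. Of the 11 sets, only those of EXTL2 and GPBP1 were bright enough for the filter at the 75th percentile, so the rest were not tested there. Over the whole table, the 35 calls became 34 with that filter, 31 with no filter and 25 after median alignment. They became 27 without the first arrays of the other 3 groups. The member calls were 2 and 2 without placebo array 1 and 2, 4 and 2 without progesterone array 1 and 2, 7 without estrogen array 3 and 7 without combination array 2. The 22 calls of the combination against progesterone became 4 with the stricter filter, 7 in the 6-array fit, 0 with the brightest sets and 0 to 47 without 1 array: 34, 0 and 6 without progesterone array 1, 2 and 3, 4 and 3 without combination array 1 and 2, and 47 and 14 without placebo array 1 and 2. Of the 8 member sets called in the combination against progesterone, only that of EXTL2 was bright enough for the stricter filter. The others were not tested under it. The replicate block gave 19 in that comparison and 0 in the other 3 comparisons, so that it changed no call in the comparisons of the combination with placebo and with estrogen. Estrogen against placebo gave 1 call with no filter and 0 to 1 without 1 array, the combination against placebo 1 with no filter, and the combination against estrogen 0 to 1 without 1 array. TM7SF3 and ANKRD11 passed in 12 of 12 fits without 1 array, WASHC4 in 9, EXTL2, USP16 and MYO6 in 8, ITPRID2 in 5, CCDC88A and SREK1 in 4. Of 384 single-gene values under other settings, 0 changed direction, 228 kept their side of the threshold, 151 no longer passed and 5 newly passed. These values pool progesterone against placebo and the combination against progesterone. The 228 include values that had not passed at first, such as those of SREK1 and GPBP1 in the second comparison, so the count overstates how many calls held. With the replicate block EXTL2, CCDC88A, ITPRID2 and SREK1 no longer passed (adjusted p from 0.0658 to 0.0841, limma).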
